A study of Mus musculus with 24 samples.

Results

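The enzymes that supply NADPH were described here as a group of 8 genes, taken by gene symbol from the annotation of the array's probe sets. These are Idh1 and Idh2, Me1, G6pdx and Pgd, Tkt and Taldo1, and Nnt. Of the 8 genes, 7 were measured, of 12393 genes named on the array, by 14 of the 22626 probe sets tested. A probe set is a group of short oligonucleotides that are read together as 1 signal. The annotation used here pairs no probe set with G6pdx, the first enzyme of the pentose phosphate pathway, and G6pdx was not analysed here. All 14 probe sets are annotated to 1 gene each, with 4 for Pgd, 2 each for Idh1, Me1, Tkt and Nnt, and 1 each for Idh2 and Taldo1. The names of some probe sets end in _s_at or _x_at, which the manufacturer gives where probes may also match transcripts of other genes. This applies to both probe sets of Idh1, to 3 of Pgd and to 1 each of Tkt and Nnt.

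NADPH is the electron donor of most reductive syntheses in the cell. In the ovary it feeds the cytochrome P450 enzymes that cleave and hydroxylate cholesterol on the way to progesterone, androgens and estradiol, the synthesis of cholesterol and fatty acids, and the reduction of glutathione and thioredoxin. Cytosolic NADPH comes from the oxidative branch of the pentose phosphate pathway, from cytosolic isocitrate dehydrogenase and from malic enzyme. Mitochondrial NADPH comes from mitochondrial isocitrate dehydrogenase and from the transhydrogenase of the inner membrane.

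FL1 is a mouse line under long-term selection on an index that combines litter size with the weight of the litter at birth. DUKsi is an unselected line from the same founder population, kept by mating of full siblings. Ovaries of virgin females 6 to 9 weeks old were taken at metestrus in both lines, and the RNA was combined into 6 pools per line. The study's methods give 5 animals in each pool and the sample labels 6, so that each value below stands for several animals and not for 1. Every pool was hybridized to 2 arrays, 24 arrays in all, and the signals of the 2 arrays were averaged. Values are MAS5 signals, the expression measure of the array software, on a linear scale set to the same level on each array. Levels of different probe sets were not compared, since probe sets differ in how well they hybridize. Lines were compared on log2 signals with limma, over all probe sets tested, and a probe set passed at a Benjamini-Hochberg adjusted p under 0.01. It was called when the ratio of the mean signals was also at least 1.5 in either direction. Fold changes are FL1 over DUKsi throughout, and errors are SD over the 6 pools of a line.

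Over the whole array, 764 probe sets passed and 524 were called. The median log2 fold change of all probe sets was -0.07, and 38.3% of them lay above 0. Markers of ovarian cells were present in both lines, and none of the 6 measured ones of 8 (among them Gdf9, Zp3, Fshr and Star) had a mean over the 12 pools under 49.9, the signal below which 20% of all values fall. The 3' to 5' signal ratio of beta-actin, a measure of RNA integrity that increases with degradation, ran from 1.322 to 2.45 in FL1 pools, against 1.18 to 1.317 in DUKsi pools (p = 0.00216 by a two-sided exact permutation of the pools, which can give no smaller value). The same ratio of Gapdh overlapped between the lines, at 1.13 to 2.31 in FL1 pools and 1.081 to 1.51 in DUKsi pools (exact permutation p = 0.203). FL1 pool 3 had the highest value of both ratios. It was the lowest or the highest FL1 pool for 9 of the 14 probe sets described here, and for 55.2% of all probe sets. In RNA of whole ovaries, more cells of a type cannot be told apart from more transcript per cell.

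Of the 14 probe sets 3 passed, all of them higher in FL1, where 3.38% of all probe sets passed and 1.83% passed upward. These were both probe sets of Idh1 and 1 of the 2 probe sets of Me1. The Idh1 probe sets were also called, a step that 2.32% of all probe sets reached in either direction and 1.24% upward, and their lines did not overlap, as for 4.62% of all and 2.24% with FL1 on top. The remaining 11 probe sets, of Idh2, Pgd, Tkt, Taldo1, Nnt and the other one of Me1, did not pass. The median log2 fold change of the 14 was 0.16, and 11 of them lay above 0, where 38.3% of all probe sets did. By the brightest probe set of each gene, 6 of 7 lay above 0. The 14 are not separate values, since several read the same gene. Their mean signals lay at or above the percentile 77.7 of all probe sets, and no comparison was made with probe sets of like signal.

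**Figure D1:**
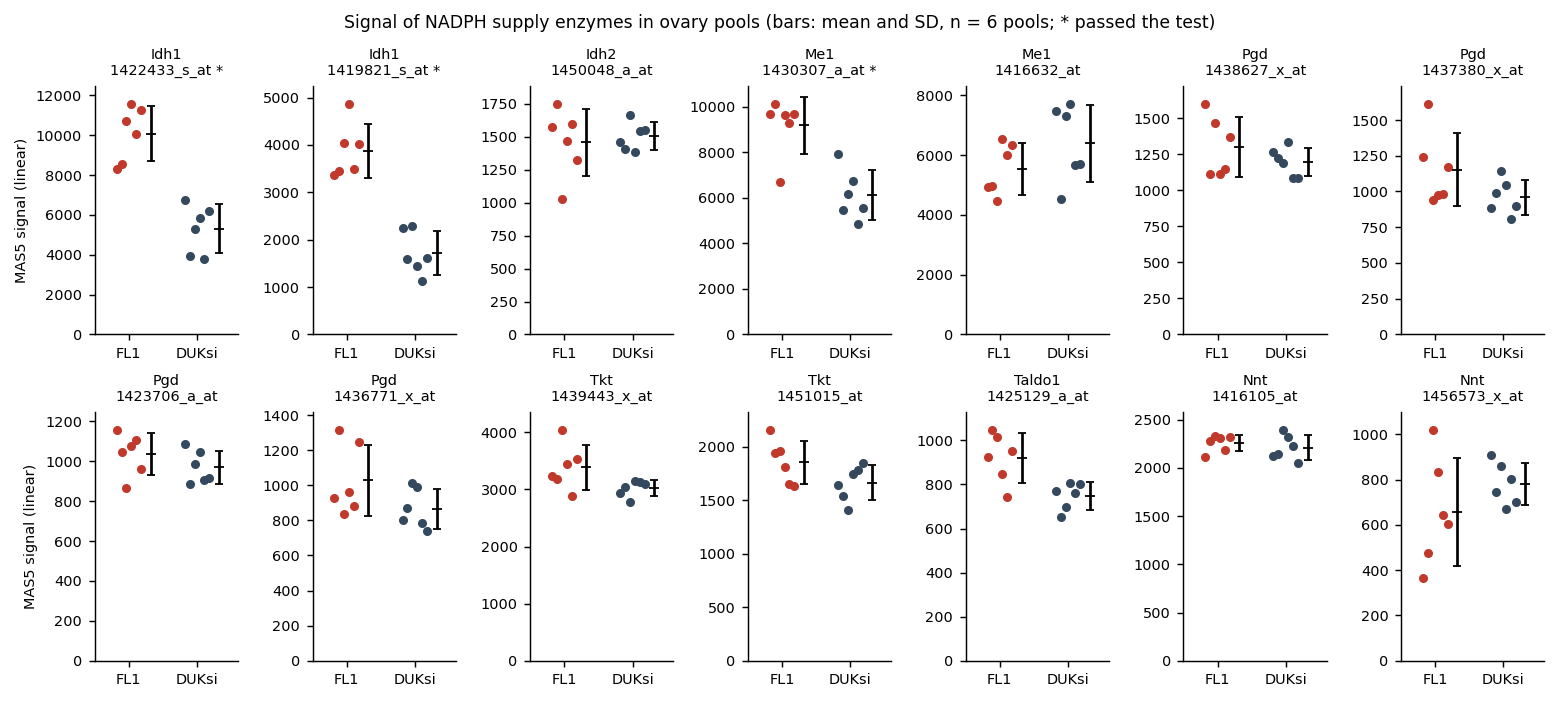
MAS5 signals (linear scale, y axis) of the 14 probe sets in each FL1 pool (red) and DUKsi pool (dark), with the mean and SD of the 6 pools of a line as bars and an asterisk where the adjusted p was under 0.01. The lines lie apart for both probe sets of Idh1, whose FL1 pools start at 8332 and 3369, and overlap in the others, with FL1 pool 3 within the DUKsi range for Me1 1430307_a_at.

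Idh1 encodes the isocitrate dehydrogenase of the cytosol and of peroxisomes, which makes NADPH as it turns isocitrate into 2-oxoglutarate. In its brighter probe set (1422433_s_at) the signal ran from 8332 to 11566 with a median of 10395 in FL1 pools, against 3783 to 6774 with a median of 5571 in DUKsi pools. The lowest FL1 pool, pool 1, was thus above the highest DUKsi pool, also pool 1. The fold change was 1.90 (0.95 on the log2 scale with an SE of 0.141, and an adjusted p of 0.000465 by limma). In the other probe set (1419821_s_at) the signal ran from 3369 to 4860 with a median of 3761 in FL1 pools, against 1121 to 2283 with a median of 1597 in DUKsi pools. Again no pool of one line reached the range of the other, and the fold change was 2.26 (1.21 on the log2 scale with an SE of 0.152, adjusted p = 0.000101). The log2 fold changes of the 2 probe sets differed by -0.26, the brighter one having the smaller change, which the pools did not separate (two-sided exact permutation test, p = 0.110, and 0.333 adjusted over 7 such pairs). Idh1 passed in both probe sets under all 26 alternatives of the fit, with adjusted p of at most 0.00722.

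The DUKsi pools were spread more widely for Idh1 than the FL1 pools. Log2 signals of the brighter probe set had an SD of 0.20 among FL1 pools and 0.35 among DUKsi pools, while arrays of the same pool differed by an SD of 0.19. DUKsi pools 5 and 2 were the lowest, at 3783 and 3917. Among the 14 probe sets the SD was larger in DUKsi for 5, those of Idh1 and Me1 and the brighter one of Nnt, and larger in FL1 for the other 9, where 64.1% of all probe sets had the larger SD in FL1.

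Markers of luteal cells, the progesterone producing cells of the corpus luteum, were higher in FL1, as Idh1 was. Of 10 luteal markers, a list without Idh1, 8 were measured, none of them with a mean under 49.9. Of the 8, 3 passed upward and none downward, where 1.83% of all probe sets passed upward. The median log2 fold change of the 8 was 1.12, against -0.07 for all probe sets. The 3 were Cyp11a1, the side chain cleavage enzyme, Ptgfr, the receptor of prostaglandin F2 alpha, and Fdx1, the ferredoxin of the mitochondrial P450 enzymes. The study had already reported Cyp11a1 and Ptgfr as differing between the lines on these arrays. The list was chosen with earlier results of these data known, so that this count is no independent finding. The summed signal of the 8 was 59273 to 68700 in FL1 pools, against 32288 to 48630 in DUKsi pools. In both lines the pool with the highest sum was also the highest in the brighter Idh1 probe set, FL1 pool 4 and DUKsi pool 1. The pool with the lowest sum was the lowest in Idh1, FL1 pool 1 and DUKsi pool 5. In FL1 this rests on a near tie, since pool 5 had a sum of 59317 beside 59273 in pool 1. In Idh1 these pools were at 10048 and 8332. The order was not the same throughout, since FL1 pool 2 was above FL1 pools 3 and 5 in the sum and below them in Idh1. In the other Idh1 probe set the highest DUKsi pool was pool 3. The summed signal of the 8 measured granulosa cell markers was 39656 to 44973 in FL1 pools and 45580 to 52068 in DUKsi pools. Of these 8, Inhba, a subunit of activin and inhibin A, fell and 7 did not pass, 2 had a log2 fold change above 0, and the median was -0.20. Oocyte markers summed to 7428 to 9794 in FL1 pools and 9877 to 11727 in DUKsi pools over 8 measured markers, of which Zp3, a protein of the egg coat, fell and 7 did not pass. Of the 4 measured theca markers Cyp11a1, counted among the luteal markers too, passed upward, and the other 3 had log2 fold changes below 0 and did not pass. Of 7 endothelial markers 1 passed upward, Pecam1, an adhesion molecule of vessel walls. None of the 8 macrophage and 4 oviduct markers passed. The oviduct markers summed to 533 to 1032 in FL1 pools and 694 to 4305 in DUKsi pools. One of them, Ovgp1, was at 3462 in DUKsi pool 4, against a DUKsi median of 283 and at most 389 in FL1 pools. Of the 4 measured red blood cell markers 3 had a mean over the 12 pools under 49.9. Among these was Alas2, the 1 that passed upward, at 22.2 to 91.5 in FL1 pools and 6.75 to 34.4 in DUKsi pools. The part of the cell types in the difference of Idh1 was not tested. With the beta-actin ratio as a covariate the log2 fold changes of Idh1 were 0.84 and 1.11 (adjusted p = 0.00722 and 0.00238 by limma). That ratio did not overlap between the lines, so that such a fit cannot fully tell it apart from the line.

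**Figure D2:**
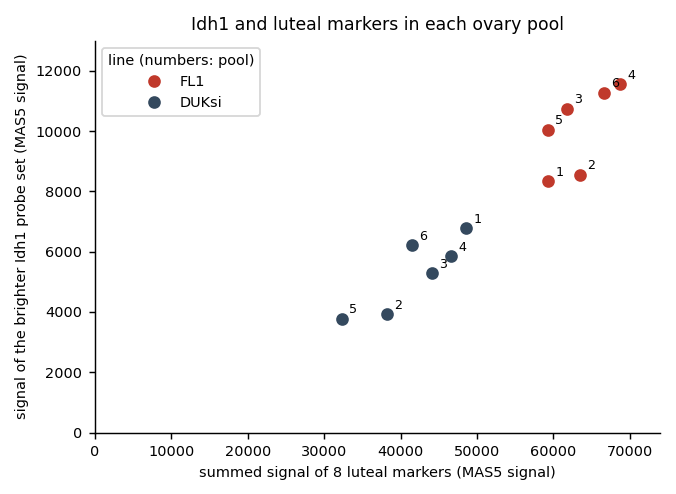
Signal of Idh1 (1422433_s_at, y axis, MAS5 signal) against the summed signal of 8 luteal markers (x axis, MAS5 signal) in each of 12 pools, red for FL1 and dark for DUKsi, with pool numbers beside the points. FL1 pools lie above and to the right of all DUKsi pools, and DUKsi pools 5 and 2 are lowest on both axes.

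Other genes were set beside Idh1 by their course over the pools within each line, with the mean of each line taken out. Among 10419 probe sets of 1 gene with a mean signal above the array's median, the nearest was Hmox1, heme oxygenase, which breaks down heme (Pearson r = 0.90, Spearman rho = 0.92 over 12 pools), followed by Mettl7a2 (r = 0.88, rho = 0.83) and Efhd1 (r = 0.85, rho = 0.81). These are the highest of a large number of correlations over pools that also share their arrays' quality, and no p is given. None of these genes passed between the lines, with log2 fold changes of 0.25, -0.10 and 0.44. On chromosome 1 the 3 nearest measured genes on each side of Idh1 in RefSeq order (GRCm38.p6) did not pass either, with log2 fold changes of -0.47 to 0.24 and a lowest adjusted p of 0.298. They are the crystallin genes Crygd, Crygb and Cryga on one side, and Pikfyve, Pth2r and the crystallin gene Crygf on the other. Whether the ovary expresses these genes was not examined, and a gene it does not express could hardly pass.

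Idh2 is the mitochondrial counterpart of Idh1 and the only NADP-dependent isocitrate dehydrogenase of that compartment. Its signal (1450048_a_at) ran from 1031 to 1748 with a median of 1521 in FL1 pools, against 1384 to 1669 with a median of 1502 in DUKsi pools. The DUKsi pools lay within the range of FL1, whose lowest value belonged to pool 3. The log2 fold change was -0.06 (95% interval -0.29 to 0.16, adjusted p = 0.799). Its sign is not settled, since it turned positive on the first array of each pool and in 4 further alternatives.

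Whether the cytosolic and the mitochondrial enzyme changed unequally was tested on the difference of their log2 signals in each pool. Idh1 minus Idh2 was 2.29 to 3.38 in FL1 pools, against 1.29 to 2.22 in DUKsi pools, with no overlap. The mean of the FL1 pools exceeded that of the DUKsi pools by 1.01 (two-sided exact permutation p = 0.00216, the smallest possible, and 0.00433 adjusted over the 2 pairs tested). This is largely the change of Idh1 given above, 0.95, beside -0.06 for Idh2, and not a separate result. For Tkt minus Taldo1 the difference between the lines was -0.14 (p = 0.110, also 0.110 adjusted). Of the 3 pairs planned, that of G6pdx with Pgd was not tested.

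Me1 encodes the cytosolic malic enzyme, which makes NADPH in turning malate into pyruvate. Its probe sets gave different results. In 1430307_a_at the signal ran from 6681 to 10123 with a median of 9659 in FL1 pools, against 4875 to 7950 with a median of 5863 in DUKsi pools. All FL1 pools but pool 3 were above the highest DUKsi pool. FL1 exceeded DUKsi by 0.59 on the log2 scale (limma SE 0.119, adjusted p = 0.00557), and the ratio of the mean signals, 1.499, fell just short of the 1.5 needed for a call. In 1416632_at the signal ran from 4452 to 6543 with a median of 5481 in FL1 pools, against 4523 to 7707 with a median of 6505 in DUKsi pools. Here 3 DUKsi pools were above all FL1 pools, and the log2 fold change was -0.20 (95% interval -0.48 to 0.09, adjusted p = 0.450).

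The disagreement of the Me1 probe sets was larger than the spread of the pools. The log2 signal of 1430307_a_at minus that of 1416632_at was 0.56 to 1.03 in FL1 pools, against -0.25 to 0.28 in DUKsi pools, a difference between the lines of 0.79 (two-sided exact permutation p = 0.00216, again the smallest possible). It was looked for after the values had been seen, together with 6 other pairs of probe sets of 1 gene, and the p adjusted over these 7 was 0.0152. In the other 6 pairs, of Idh1, Pgd, Tkt and Nnt, the adjusted p of the exact test was 0.333 to 0.985. The sign of the Me1 value thus depends on the probe set.

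The pass of 1430307_a_at was close to the threshold. It was lost in 13 of 26 alternatives, at adjusted p of 0.0124 to 0.0277, among them the omission of FL1 pool 1, 2, 4, 5 or 6 or of DUKsi pool 2, 3, 5 or 6, the first arrays alone and the methods' t-test. Without FL1 pool 3 and DUKsi pool 4 together the log2 fold change was 0.71 (adjusted p = 0.00076) and the ratio of the means 1.61. Fat cells contain much malic enzyme, and markers of fat carried over with the ovary were measured beside it. None of the 6 measured adipocyte markers of 8 passed, Lep and Cidec had means under 49.9, and the summed signal was 651 to 3623 in FL1 pools, against 585 to 2776 in DUKsi pools. The pool with the highest sum was FL1 pool 2 at 3623 and DUKsi pool 1 at 2776. In both lines it was also the highest in Me1 1430307_a_at, and DUKsi pool 4 was second in both measures. FL1 pool 3, second among FL1 pools in the sum at 1004, was however the lowest of them in this probe set, at 6681. In 1416632_at the highest pools were FL1 pool 4 and DUKsi pool 4. The part of fat in the values of Me1 was not tested. With the beta-actin ratio as a covariate the log2 fold change of 1430307_a_at was 0.82 (adjusted p = 0.000808 by limma). As for Idh1, the ratio and the line cannot be fully told apart in this fit.

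**Figure D3:**
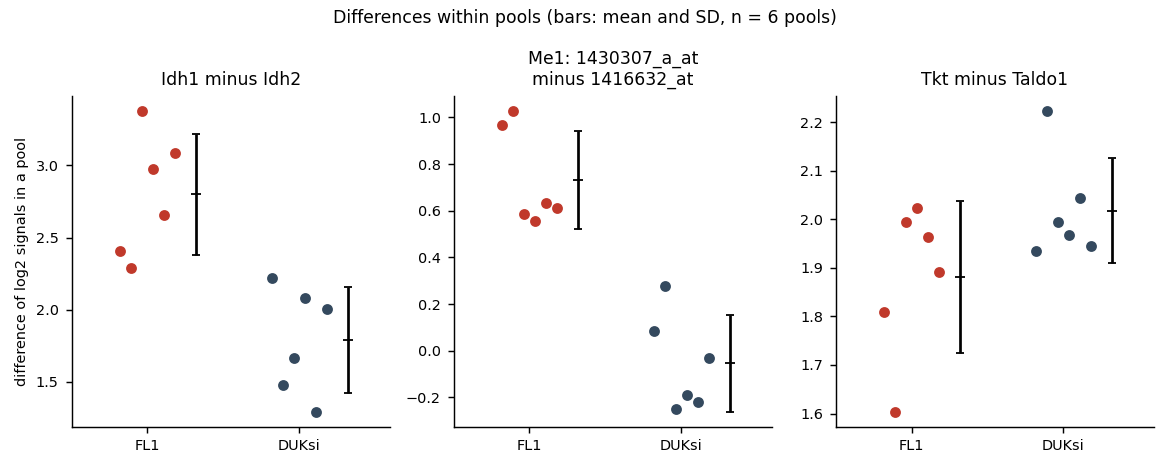
Difference of log2 signals within each pool (y axis) for Idh1 minus Idh2, for the 2 probe sets of Me1 and for Tkt minus Taldo1, with FL1 in red and DUKsi in dark and the mean and SD of the 6 pools as bars. The lines do not overlap in the first 2 panels and overlap in the last one.

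The genes nearest to Me1 1430307_a_at in their course over the pools within lines were Zdhhc12 (Pearson r = 0.94, Spearman rho = 0.73 over 12 pools), Capns1 (r = 0.92, rho = 0.86) and Timm10b (r = 0.92, rho = 0.88), a palmitoyltransferase, the small subunit of calpain and a factor of mitochondrial import. Of these Capns1 passed between the lines (log2 fold change 0.39, adjusted p = 0.00363), and Zdhhc12 and Timm10b, at 0.35 and -0.05, did not. As for Idh1, these are the highest of a large number of correlations over pools that share their arrays' quality, and no p is given. In this Me1 probe set FL1 pool 3 lay at 6681 and the next FL1 pool at 9307. A single pool so far off can weigh heavily in a Pearson r, and its part was not tested. Of the 3 nearest measured genes on each side of Me1 on chromosome 9, 1 passed downward and 1 upward. These were Ibtk, which encodes an inhibitor of Bruton's tyrosine kinase (log2 fold change -0.78, adjusted p = 0.000828), and Prss35, a gene of the serine protease family (log2 fold change 0.47, adjusted p = 0.00358).

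The sequences before the starts of Idh1 and Me1, the genes with a probe set that passed, are shown for the motifs in them. They are RefSeq sequences of GRCm38.p6, 250 bases before the first listed start and the first 10 bases after it, read 5' to 3' on the strand of the gene. Capitals mark matches, on either strand, to TGACNNNGC, the core of the antioxidant response element that NRF2 binds in many genes of NADPH supply, and to GGGCGG, the GC box of SP1.
Idh1, chr1:65186470-65186729, minus strand: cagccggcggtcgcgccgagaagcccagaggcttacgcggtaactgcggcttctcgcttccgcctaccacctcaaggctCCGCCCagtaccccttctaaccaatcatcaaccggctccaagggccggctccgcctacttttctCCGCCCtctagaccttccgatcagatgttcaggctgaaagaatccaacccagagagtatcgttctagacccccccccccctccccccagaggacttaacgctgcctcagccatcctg
Me1, chr9:86695905-86696164, minus strand: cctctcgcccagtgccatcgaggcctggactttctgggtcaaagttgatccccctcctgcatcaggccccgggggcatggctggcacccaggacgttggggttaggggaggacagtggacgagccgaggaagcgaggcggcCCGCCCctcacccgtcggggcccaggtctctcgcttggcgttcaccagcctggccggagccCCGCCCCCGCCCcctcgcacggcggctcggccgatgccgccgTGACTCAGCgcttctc

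The window of Me1 held 1 match to the antioxidant element, TGACTCAGC, beginning 6 bases before the start, and 3 GC boxes, 2 of them adjoining and none overlapping the element. The window of Idh1 shown held 2 GC boxes and no match to the antioxidant element. RefSeq sequences of this kind were found for 7 of the 8 genes, all but Nnt, with 10 windows in all, since Idh1, Me1 and Pgd have 2 listed starts. The antioxidant core was found in 2 of the 10 windows, the one of Me1 shown and that of G6pdx, and in 10.7% of the 32851 windows of all genes. GC boxes were in 8 of 10 windows and in 33.4% of all. The share of G and C was 46.9% to 71.5% in the 10 windows and 53.3% over all windows, and the count of GC boxes was not adjusted for it. Neither the sterol response element nor CAAGGNCA, a site of the NR5A receptors, was found in the 10 windows, where 0.201% and 5.76% of all windows hold them. A match is a string of letters only, and the start that ovarian transcripts use was not measured.

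Pgd encodes 6-phosphogluconate dehydrogenase, the second NADPH producing step of the oxidative pentose phosphate pathway. In its brightest probe set (1438627_x_at) the signal ran from 1113 to 1597 with a median of 1261 in FL1 pools, against 1083 to 1334 with a median of 1205 in DUKsi pools. FL1 pools 1, 3 and 6 lay above all DUKsi pools and the others within their range. The log2 fold change was 0.11 (95% interval -0.10 to 0.32, adjusted p = 0.576). The other 3 probe sets had log2 fold changes of 0.25, 0.23 and 0.09 with adjusted p of 0.294 to 0.583, so that all 4 were above 0 and none passed. The upper ends of their intervals, 0.26 to 0.51, lie under the value of either Idh1 probe set. G6pd2, an autosomal copy of G6pdx that is not among the 8 genes, had a signal of 6.05 to 47.4 in FL1 pools and 8.70 to 44.6 in DUKsi pools, all under 49.9.

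Tkt and Taldo1 encode transketolase and transaldolase, which return pentose phosphates to glycolysis and make no NADPH themselves. In the brighter probe set of Tkt (1439443_x_at) the signal ran from 2890 to 4034 with a median of 3339 in FL1 pools, against 2777 to 3153 with a median of 3067 in DUKsi pools. All FL1 pools but pool 5 were above every DUKsi pool, but the margin was small, 0.16 on the log2 scale (limma SE 0.0732, adjusted p = 0.249). The other probe set of Tkt had the same log2 fold change, 0.16 (adjusted p = 0.318). For Taldo1 (1425129_a_at) the signal ran from 741 to 1045 with a median of 938 in FL1 pools, against 651 to 806 with a median of 765 in DUKsi pools. Here too all FL1 pools but pool 5 were above the DUKsi range. The log2 fold change of 0.29 (SE 0.0896, 95% interval 0.10 to 0.48) had an adjusted p of 0.0631 and did not pass, nor did it pass in any of 26 alternatives, at 0.0116 to 0.249.

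Nnt encodes the proton-translocating transhydrogenase of the mitochondrial inner membrane, which passes electrons of NADH to NADP. Its brighter probe set (1416105_at) varied least of the 14 among FL1 pools, with an SD of log2 signals of 0.056, against 0.083 among DUKsi pools. The signal ran from 2115 to 2333 with a median of 2295 in FL1 pools, against 2045 to 2388 with a median of 2185 in DUKsi pools. The FL1 pools all lay within the DUKsi range. The log2 fold change was 0.03 (95% interval -0.09 to 0.15, adjusted p = 0.791), and its sign turned under quantile normalization and with the beta-actin covariate. In the dimmer probe set (1456573_x_at) the signal ran from 365 to 1017 with a median of 624 in FL1 pools, against 670 to 909 with a median of 774 in DUKsi pools. The DUKsi pools lay within the wide range of FL1, where pool 1 was lowest and pool 3 highest, and the log2 fold change was -0.32 (adjusted p = 0.382). With the beta-actin ratio as a covariate this probe set passed at -0.79 (adjusted p = 0.00648), the only one of 26 alternatives in which it did. Here too the ratio and the line cannot be fully told apart.

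**Figure D4:**
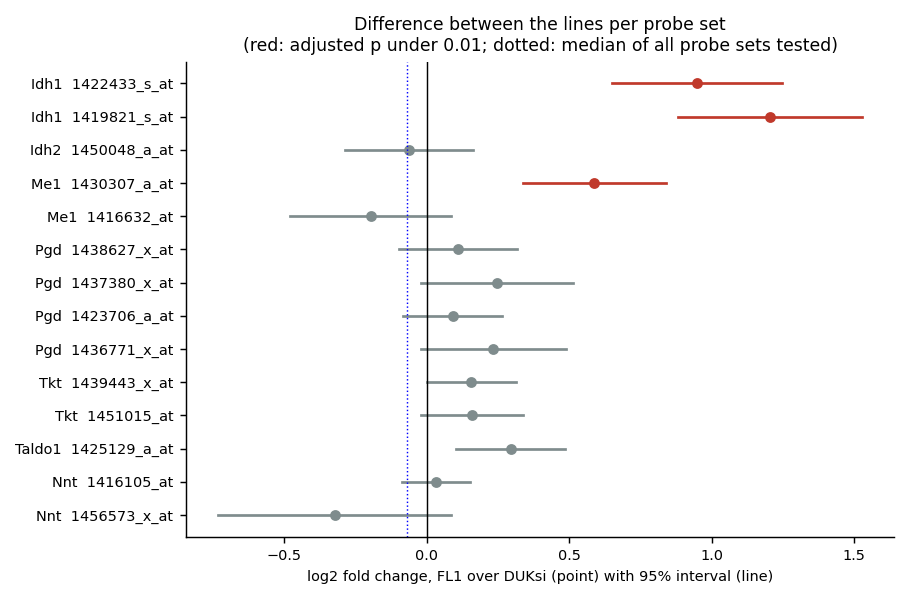
Log2 fold change (FL1 over DUKsi, x axis) with its 95% interval for each of the 14 probe sets (y axis), red at an adjusted p under 0.01, with the median of all probe sets, -0.07, as a dotted line. Intervals of both Idh1 probe sets lie above 0.65, and that of Nnt 1416105_at runs from -0.09 to 0.15.

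Further enzymes of the same routes were counted from a list of 18 genes, 13 of them measured. Of these 1 rose, 1 fell and 11 did not pass, with a median log2 fold change of 0.00 (-0.0027), against -0.07 for all probe sets. Aldh1l1, the cytosolic formyltetrahydrofolate dehydrogenase, which makes NADPH in folate metabolism, rose by a log2 fold change of 0.84 (adjusted p = 0.000589). Rpia, which makes ribose 5-phosphate in the pentose phosphate pathway, fell by 0.45 on the log2 scale (adjusted p = 0.000593).

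Genes of routes that use NADPH were counted likewise, though not every gene listed encodes an enzyme that itself uses NADPH. Of 16 listed genes of steroid synthesis 10 were measured, of which 3 rose, none fell and 7 did not pass, with a median log2 fold change of -0.14. The 3 were Hsd17b7 (1.78), Cyp11a1 (0.98) and Fdx1 (0.48), the last 2 also among the luteal markers above. Of 16 listed genes of sterol and fatty acid synthesis 14 were measured, of which 5 rose, none fell and 9 did not pass, with a median of 0.36. They included Sc5d (1.10) and Dhcr7 (1.34), both late in cholesterol synthesis, and Hsd17b12 (0.32), a reductase of fatty acid elongation. Of 15 listed genes of antioxidant defence 14 were measured and none passed, with a median of 0.04. The brightest of these, thioredoxin Txn1, had a log2 fold change of 0.15 (95% interval 0.03 to 0.27, not adjusted for the number of probe sets, and adjusted p = 0.137 by limma).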

How the data were processed

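Ovarian RNA pools of the lines FL1 and DUKsi, 6 per line with 2 arrays each, had been measured by the authors on Affymetrix mouse expression arrays. The deposited intensity values are MAS5 signals per probe set, which the authors computed and scaled to a common target on each array (mean of 499.963 to 499.966 after 2% of the values at either end were left out). No 2 of the 24 arrays held identical values. The technical SD between arrays of the same pool was 0.147 to 0.219 (log2) over probe sets brighter than the median. Detection calls and pairwise comparison calls were not used here.

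The mean signal of a pool's arrays was log2-transformed and the 12 pools fitted in R 4.3.3 with limma 3.58.1 (linear model, empirical Bayes with a trend), after 64 control probe sets had been left out. Single values were tested by exact permutation of the 924 splits of the pools. The replicates are pools of animals, so that p-values measure the spread between pools, whose number limits the precision.

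Probe sets were named from the GEO annotation of the platform, in which 20380 of 22626 have 1 gene, 691 several and 1555 none. A gene with several probe sets was led by the one with the highest mean signal. Every probe set of a member was named, and from each further list up to 3 genes with the smallest adjusted p, or the brightest where none passed, and for each member that passed the 3 genes of highest within-line correlation and counts over its chromosomal neighbours. Lists of ovary, theca, oocyte, red blood cell, macrophage, endothelial and oviduct markers were counted too. The members, lists and thresholds were chosen with earlier results of these data known. The beta-actin covariate and the joint omission of FL1 pool 3 and DUKsi pool 4 were taken from such results, and the comparison of probe sets of 1 gene was chosen after seeing the data. The pool numbers did not pair the lines (correlation of same-numbered pools -0.26 to 0.17).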

Additional observations from a re-analysis of the deposited data

Results flagged for a closer look

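For each of the 14 probe sets the 6 pools of each line were searched for a pool far from the other 5 of its line, 28 groups in all, of which chance marks about 1 in 20. FL1 pool 3 was marked for Me1 1430307_a_at, at a signal of 6681, where the other FL1 pools lay between 9307 and 10123. The gap was 0.763 of the range of the line, above the limit of 0.625. FL1 pool 3 was also the pool with the highest 3' to 5' ratio of beta-actin. With that ratio as a covariate the log2 fold change of this probe set was 0.82 (adjusted p = 0.000808 by limma), against 0.59 without it. The ratio did not overlap between the lines, so that this fit cannot fully tell it apart from the line. Whether RNA quality set this pool apart was not tested. Without FL1 pool 3 the log2 fold change of this probe set was 0.68.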

How the results depend on the processing

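Alternatives were scaling of pools to a common median or quantile normalization, use of 1 array per pool, averaging after log2, a fit to all arrays in which pools were random, omission of the dimmest 40% of probe sets, a constant of 49.9 added to signals, limma in other forms or the methods' t-test, the beta-actin covariate, and omission of pools. The number of the 14 probe sets that passed was 2 to 4, and the number called 2 or 3. Over 364 values, 343 kept their direction and their side of the threshold. Me1 1430307_a_at lost its pass in 13, and Nnt 1456573_x_at gained it in 1. In 7 cases the sign turned, none of them past the test. Idh2 had a log2 fold change of 0.052 on the first arrays, 0.026 with scaling to the same median, 0.21 with the beta-actin covariate, 0.012 without FL1 pool 3 and DUKsi pool 4, and -0.12 to 0.035 when single pools were left out, with the positive value without FL1 pool 3. Nnt 1416105_at had -0.018 with quantile normalization and -0.015 with the beta-actin covariate. The cause was not tested. Scaling to the same median moved the median of all probe sets by 0.09. With single pools left out, 2 or 3 probe sets passed and 2 or 3 were called. Me1 1430307_a_at reached the fold of 1.5 for a call without FL1 pool 3 or DUKsi pool 1 or 4. Idh1 minus Idh2 was 0.89 to 1.11, the difference of the Me1 probe sets 0.73 to 0.85, and Tkt minus Taldo1 -0.166 to -0.082. Without FL1 pool 4 the last had an exact permutation p of 0.0498. With the pool number as a replicate block, 3 probe sets passed and 2 were called, and the sign-flip permutation within numbers gave p = 0.0312 for Idh1 minus Idh2 and for the Me1 probe sets, the smallest this exact test allows, and 0.156 for Tkt minus Taldo1. Of the 6 FL1 pools 0 correlated best with the DUKsi pool of the same number. Over all probe sets, 764 passed (413 higher), against 865 (633 higher) with scaling to the same median, 468 on the second arrays, 507 with the methods' t-test, 1278 with all arrays and 1241 with the covariate. The mean signals of the 14 lay at or above the percentile 77.7 of all probe sets.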
